A study of Mus musculus with 12 samples.

Results

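The data describe how 4T1 cells in which Etv4 had been knocked out responded to fibroblast growth factors, FGF10 and FGF2 given together, in collagen culture. The comparison sets 3 knockout libraries with FGF (Etv4_KO_FGF) against 3 knockout libraries without it (Etv4_KO). These are 6 of the 12 libraries of the series. The other 6 are 4T1 cells given Cas9 and control guides, with FGF (3 libraries) and without it (3 libraries), and they enter here for the shared estimate of spread and for the test of a difference between genotypes. All genes that passed a filter on low counts were tested, 12079 in all.

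4T1 is a metastatic mouse mammary carcinoma line. Every group was nucleofected with Cas9, seeded at 100000 cells per ml in 80 µl droplets of collagen I and grown in low serum (2%). Gels held 1.2 mg/ml collagen in some cultures and 2.4 mg/ml in others, with no record of which was used for a given library. FGF-treated cells were seeded in 10% serum with 25 ng/ml FGF10 and 40 ng/ml FGF2, moved the next day to 2% serum with the same factors, and kept so for 4 days with fresh factors every 2 days. Whether cells without FGF also began in 10% serum is not stated in the labels, so a part of that first step in the values cannot be told apart from FGF. The knockout was made with Cas9 and guides against Etv4. All knockout libraries carry the tag C39 in their names, which the labels do not explain, so it is not known here if these cells are 1 clone or a pool. Nor is it stated if the 3 libraries of a group came from separate cultures. The p-values therefore set the difference between group means only against the spread among these libraries, and that spread may be technical. RNA was taken after collagenase had freed the cells from the gel, and bulk libraries cannot tell fewer cells of a kind from less RNA per cell.

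FGFs bind receptor tyrosine kinases of the FGFR family together with heparan sulphate chains on proteoglycans. FGF10, made by the mesenchyme, acts on epithelial cells mainly through the epithelial splice form of FGFR2 and drives branching of the mammary bud, whereas FGF2 binds a broader range of receptors. The receptors feed the RAS, RAF, MEK and ERK kinase cascade, which acts on ETS transcription factors such as the PEA3 group (ETV1, ETV4 and ETV5) and induces its own inhibitors, the Sprouty and SPRED proteins and the dual-specificity phosphatases (DUSPs).

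The 12 libraries held 18229429 to 23193244 counts. Etv4_KO replicate 2 stood apart from its group. On a principal component analysis of the 6 knockout libraries it sat at 50.06 on the first component, which held 51.8% of the variance, while the other 5 lay between -13.68 and -5.6. Its counts differed from those of replicates 1 and 3 with a chi-square per degree of freedom of 72.3 and 71.3, against 3.45 between those 2. Ribosomal protein genes took 6.74% of its counts and 4.75% to 5.88% in the other 11 libraries. Its deviation from the mean of replicates 1 and 3 followed exon length (Spearman rho -0.472 across genes) and GC content (rho 0.497). Against the rest of their groups, control_FGF replicate 2 had rho -0.383 and 0.222 and replicate 1 had 0.306 and -0.291. Etv4_KO replicates 1 and 3 had 0.408 and -0.4, and 0.392 and -0.455, against means that included replicate 2. The remaining libraries lay from -0.194 to 0.194 and from -0.137 to 0.0935. The part of RNA quality in the values of Etv4_KO replicate 2 was not tested. Results are therefore given with all 12 libraries and without this library. Epithelial markers summed to 3020 to 4720 CPM (counts per 1000000 counts of the effective library size) in the 12 libraries, the fibroblast markers to 8.03 to 16, the leukocyte markers to 5.73 to 11.5 and the endothelial markers to 0.151 to 0.748. Pdgfrb, Dcn, Lum and Thy1 of the fibroblast list, Adgre1, Cd3e and Tyrobp of the leukocyte list and Kdr and Emcn of the endothelial list had 0 counts in every library.

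Etv4 (chromosome 11, 101769742 to 101785371 in mm10) was still transcribed in the knockout cells, at 116, 159 and 116 CPM without FGF and 115, 120 and 113 CPM with it, against 154 to 173 CPM in the 6 control libraries. Gene counts do not show small edits in the coding sequence, so these values do not check the knockout. The log2 change by FGF was -0.17 ± 0.11 (SE; edgeR adjusted p = 0.379) with all libraries. Without Etv4_KO replicate 2, the high library, it was -0.0028 ± 0.06 with a 95% interval of -0.12 to 0.12.

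With FGF, 7 of 25 tested genes of extracellular proteolysis and 3 of 13 tested integrins were higher in the knockout cells, against 1.47% of all genes tested. The laminin chains Lama3 and Lamb3 and several secreted ligands were also higher, and Col6a1, Col6a2, Id1, Id2, Id3, Nr4a1 and Nr4a2 were lower. Of 15 tested ERK feedback genes 1 was higher and 2 lower, against 2.42% of all genes called in either direction. With all 12 libraries 292 genes were called, at an adjusted p under 0.05 in edgeR's quasi-likelihood test with Benjamini-Hochberg adjustment, which is 2.42% of the 12079 tested. Of these 178 were higher with FGF (1.47%) and 114 were lower (0.944%), and 29 rose and 13 fell at least 2-fold. Without Etv4_KO replicate 2 there were 951 calls (7.87%), 585 higher (4.84%) and 366 lower (3.03%), of which 32 and 22 were at least 2-fold. The fits shared 290 calls, 177 higher and 113 lower, with 0 of opposite sign. The common biological coefficient of variation was 0.107 with the library and 0.0555 without it. All 292 genes called with 12 libraries had no overlap between the groups' 3 libraries, as did 23.9% of all genes tested. Where a called gene is said below to have no overlap, this therefore adds no support to its call.

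The count of calls depended on single libraries. It was 135, 120 and 123 when Etv4_KO_FGF replicates 1, 2 and 3 were left out in turn, and 192 without control replicate 3. Fitted on the 6 knockout libraries alone, edgeR called 21 genes, and 1445 when Etv4_KO replicate 2 was also left out. The 21 included Mmp9, Mmp10, Mmp13, Mmp1b, Plau, Lama3, Tnc, Col7a1, Itga5, Dll4, Sema7a, Stc1, Cdh17 and Fer1l6, all higher, and Col6a1, Mgp and Lrrc75b, all lower.

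**Figure D1:**
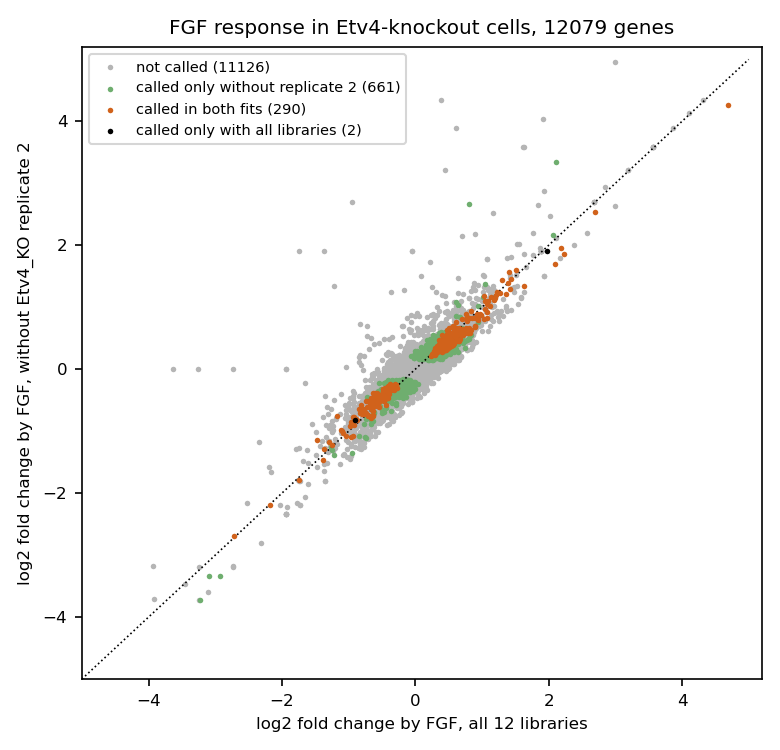
Log2 fold change by FGF in Etv4-knockout cells with all 12 libraries (horizontal axis) and without Etv4_KO replicate 2 (vertical axis), 1 point per tested gene, coloured by the fits that called it. The 290 genes called in both fits lie along the dotted line of equal change with the same sign on both axes, and 661 genes were called only without that library.

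Among the secreted proteases, Mmp9, the gelatinase that cleaves basement membrane collagen IV, had the smallest adjusted p of all genes. Its libraries read 77.5, 89.3 and 74.8 CPM without FGF and 242, 232 and 216 CPM with it. The FGF libraries were all far above the others, Etv4_KO replicate 2 included. The change was 2.86-fold (log2 1.52 ± 0.08, adjusted p = 8.55e-07), and 1.60 ± 0.06 on the log2 scale without Etv4_KO replicate 2. Mmp10 (stromelysin-2) read 58.6, 60.9 and 57.9 CPM without FGF and 127, 136 and 127 CPM with it, a 2.20-fold rise (log2 1.14 ± 0.07, adjusted p = 3.82e-06). Mmp13, a collagenase that cuts fibrillar collagen, read 35.7, 28.4 and 36.8 CPM and then 73.7, 78.1 and 68.4 CPM. Here too no library of one group reached the other, and the rise was 2.18-fold (log2 1.12 ± 0.10, adjusted p = 7.4e-05).

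Plau is the urokinase that activates plasminogen at the cell surface. Its 3 libraries without FGF were close together at 781, 779 and 764 CPM, and those with FGF at 1295, 1330 and 1339 CPM (log2 0.77 ± 0.05, adjusted p = 5.47e-06). Mmp3 (stromelysin-1) rose less, from 492, 447 and 487 CPM to 648, 664 and 663 CPM (log2 0.47 ± 0.06, adjusted p = 0.00114). Mmp1b, one of the mouse interstitial collagenase genes, rose from 11.2, 9.29 and 9.48 CPM to 19.6, 18.5 and 19 CPM (log2 0.93 ± 0.13, adjusted p = 0.00236). It has a close paralog beside it, so its reads may be shared. Adam19, a membrane-bound metalloprotease that sheds growth factors, rose by 0.69 ± 0.11 on the log2 scale. Of 25 tested members of the proteolysis list 7 were higher and 0 lower, with a median log2 change of 0.21, against -0.02 over all genes. Of all genes 1.47% were higher and 0.944% lower. Without Etv4_KO replicate 2 there were 9 higher and 1 lower, against 4.84% and 3.03% of all genes. Plaur, the urokinase receptor, was then called (log2 0.27, adjusted p = 0.0025; 0.21 and 0.142 with all libraries), and Adamts1, a protease that cuts proteoglycans, was the one lower (log2 -0.70, adjusted p = 1.16e-07; -0.50 and 0.107).

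Mmp13, Mmp10, Mmp3 and Mmp1b lie in 1 cluster of protease genes on chromosome 9 of the mouse genome. The bases just before the start sites of 3 of them are shown because the genes rose together. They are the 250 bases before the RefSeq start (build GRCm38.p6, plus strand), and were chosen after the values were seen. Capitals mark the AP-1 motif TGANTCA, bound by FOS and JUN dimers.
Mmp13, chr9:7272264-7272513: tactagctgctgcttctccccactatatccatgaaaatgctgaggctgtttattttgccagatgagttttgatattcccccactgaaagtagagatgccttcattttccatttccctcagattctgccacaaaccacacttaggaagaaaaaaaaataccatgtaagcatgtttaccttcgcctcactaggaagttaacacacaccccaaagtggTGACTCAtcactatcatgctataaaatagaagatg
Mmp10, chr9:7502092-7502341: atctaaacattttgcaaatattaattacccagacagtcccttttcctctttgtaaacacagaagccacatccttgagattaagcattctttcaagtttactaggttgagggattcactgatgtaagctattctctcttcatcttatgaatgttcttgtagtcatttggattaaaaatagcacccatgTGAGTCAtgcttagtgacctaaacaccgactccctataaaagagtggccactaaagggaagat
Mmp3, chr9:7445572-7445821: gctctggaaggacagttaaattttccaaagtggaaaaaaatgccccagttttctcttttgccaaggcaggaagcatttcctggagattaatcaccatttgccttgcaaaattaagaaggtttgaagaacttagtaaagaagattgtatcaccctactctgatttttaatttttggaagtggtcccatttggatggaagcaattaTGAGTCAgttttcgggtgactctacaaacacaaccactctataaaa
Both strands were searched for TGANTCA, for the ETS motifs CCGGAAG and ACAGGAA and for the CRE motif TGACGTCA. Each of the 3 windows held 1 TGANTCA and no exact match to the other motifs. Its first base lay 35, 63 and 46 bases before the start in Mmp13, Mmp10 and Mmp3. Only these exact letters were searched, so ETS sites with other letters were not counted in any window. The search therefore does not show that a window lacks ETS sites. The window of Mmp1b held 1 as well, 93 bases before the start. Of all 32851 RefSeq windows of this length, 6.75% held TGANTCA, 6.91% CCGGAAG, 7.2% ACAGGAA and 1.55% TGACGTCA. Windows of genes in 1 cluster may be alike, so these shares are no test of the TGANTCA matches. A match describes the letters and does not show that a factor binds there. Col6a1, which fell, also held a TGANTCA and an ACAGGAA. Among the feedback genes described below, Dusp8 held TGACGTCA at 107 and at 63 bases before its start, and Spry1, Spred3 and Dusp6 held none of the motifs in these windows.

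**Figure D2:**
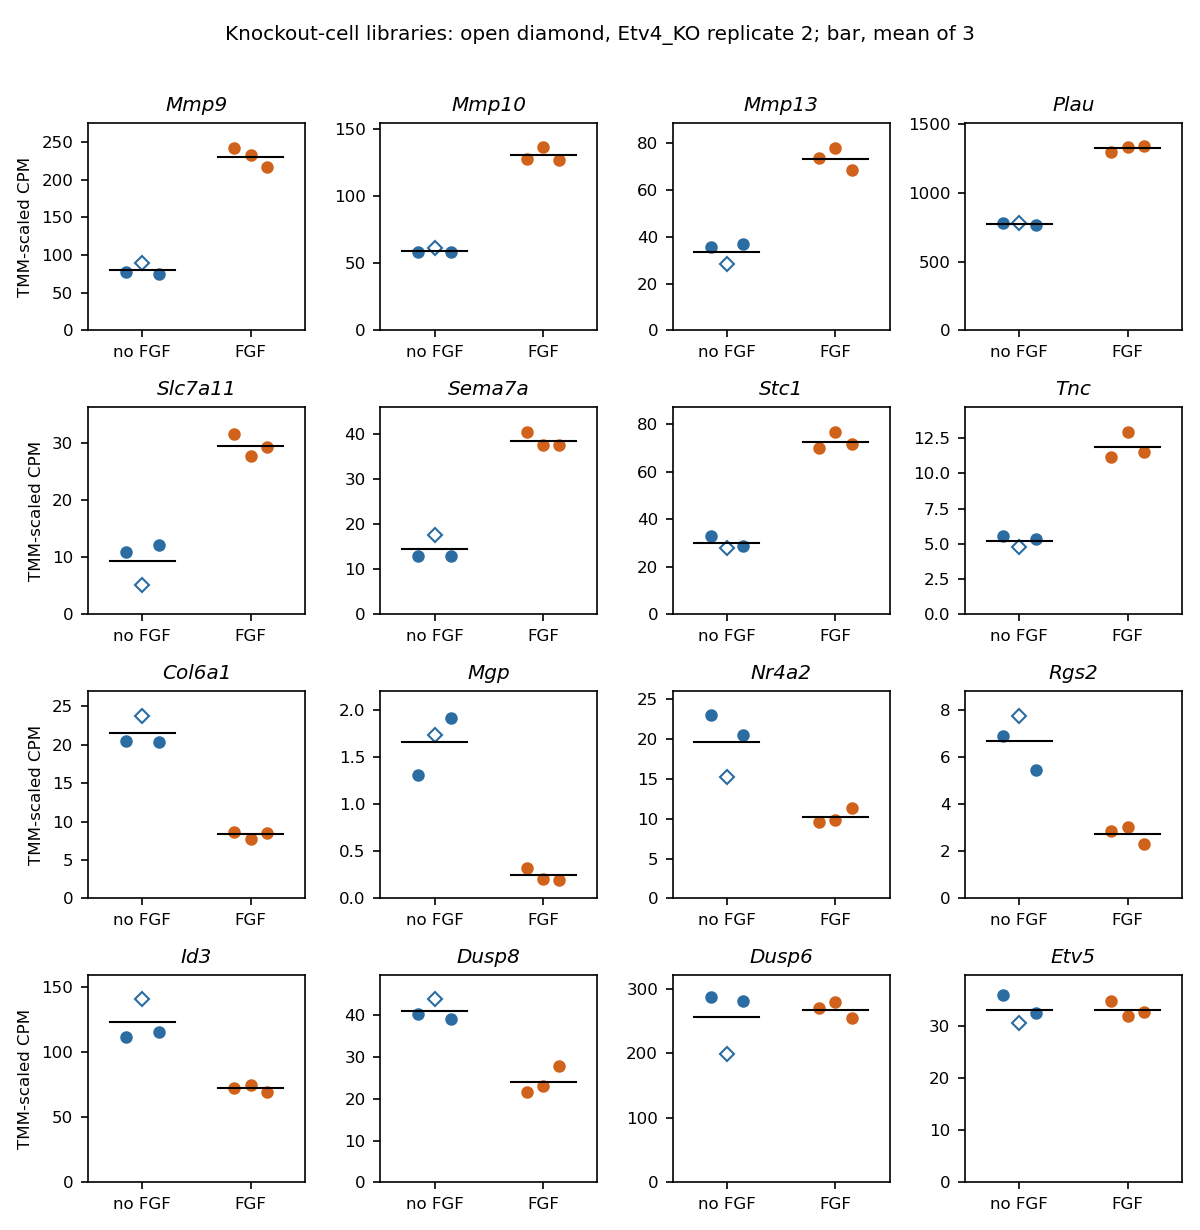
CPM of 16 genes in each knockout library, without FGF (blue) and with FGF (orange), on axes that start at 0; bars are means of 3 libraries and the open diamond is Etv4_KO replicate 2. The groups do not overlap in the first 14 panels, all of called genes, as was so in every called gene. In the panels of Dusp6 and Etv5 the libraries with and without FGF share the same range.

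Lama3 and Lamb3, chains of the laminin that anchors epithelial cells to the basement membrane through hemidesmosomes, both rose. Lama3 (alpha chain) went from 778, 697 and 786 CPM to 1256, 1209 and 1201 CPM (log2 0.70 ± 0.07, adjusted p = 0.000174). Lamb3 (beta chain) went from 717, 931 and 717 CPM to 1172, 1135 and 1161 CPM. Etv4_KO replicate 2 was the high library for Lamb3, and leaving it out moved the log2 change from 0.55 to 0.69. Col7a1, the collagen of anchoring fibrils under the same membrane, rose from 52.4, 47.7 and 50.8 CPM to 87.7, 92 and 93.9 CPM (log2 0.86 ± 0.08, adjusted p = 7.4e-05). Col17a1, a hemidesmosome collagen, was low, 4.39 to 5.25 CPM without FGF and 6.93 to 8.14 CPM with it, and its call was lost when single libraries were left out (adjusted p = 0.0491, up to 0.182). Krt14, the basal keratin, moved the other way, from 24.8, 40.6 and 29.9 CPM to 18, 17.6 and 17.2 CPM (log2 -0.85 ± 0.14, adjusted p = 0.00498). Etv4_KO replicate 2 was the highest, and without it the change was -0.64 ± 0.08. Of 10 tested basal and squamous genes 4 were higher and 1 lower (median log2 0.25), and without that library 6 and 1. Over all genes 1.47% were higher and 0.944% lower, and without that library 4.84% and 3.03%.

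Collagen VI, a beaded-filament collagen of the interstitial matrix, fell in both measured chains. Col6a1 read 20.6, 23.7 and 20.3 CPM without FGF and 8.7, 7.77 and 8.53 CPM with it. The groups were well apart, and the fall was 2.58-fold (log2 -1.37 ± 0.10, adjusted p = 9.21e-06). Its neighbour on chromosome 10, Col6a2, had few counts, at 2.22, 1.8 and 1.45 CPM (44, 30 and 31 counts) and then 0.561, 0.264 and 0.345 CPM (12, 5 and 7 counts), with a log2 change of -2.18 ± 0.33 (adjusted p = 0.00323). Mgp, a matrix protein that inhibits calcification, fell from 26, 29 and 41 counts to 7, 4 and 4 counts (log2 -2.71 ± 0.32, adjusted p = 0.000618). Sparc, a matricellular collagen-binding protein, fell from 59.6, 84.2 and 61.7 CPM to 42.1, 43.9 and 44 CPM, and Vim, the mesenchymal intermediate filament, fell by 0.32 ± 0.06 on the log2 scale. The Vim call was lost without Etv4_KO_FGF replicate 2 or 3 (adjusted p up to 0.0787). Tnc, a matricellular glycoprotein of remodelled stroma, rose from 5.55, 4.8 and 5.33 CPM to 11.1, 13 and 11.5 CPM (log2 1.18 ± 0.11, adjusted p = 0.000115). In the list of basement membrane and interstitial matrix 2 of 19 tested genes were higher (Col7a1 and Tnc) and 2 lower (the collagen VI chains), with a median of 0.04. Over all genes 1.47% were higher and 0.944% lower.

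Integrins, the receptors that tie cells to these matrix proteins, rose in 3 of 13 tested genes with 0 lower (median log2 0.39), and without Etv4_KO replicate 2 there were 5 higher and 1 lower. Over all genes 1.47% were higher and 0.944% lower, and without that library 4.84% and 3.03%. Itga2, the alpha chain of the main collagen I receptor, read 286, 173 and 290 CPM without FGF and 470, 474 and 452 CPM with it. Etv4_KO replicate 2 was far below its group, and the log2 change was 0.90 ± 0.15 with it and 0.69 ± 0.07 without it (adjusted p = 0.00721 and 3.32e-07). Itga5, the fibronectin receptor chain, rose from 63, 67.4 and 62.2 CPM to 95.5, 94.5 and 97.7 CPM (log2 0.58 ± 0.07, adjusted p = 0.000843). Itgb1, the beta chain that pairs with both, rose from 1254, 1053 and 1300 CPM to 1647, 1599 and 1639 CPM (log2 0.44 ± 0.07, adjusted p = 0.00556). Itga6, a laminin receptor chain, read 804, 457 and 789 CPM and then 1017, 968 and 976 CPM, and passed the test only without Etv4_KO replicate 2 (log2 0.31, adjusted p = 0.000618; 0.53 and 0.102 with it).

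On the receptor side, Fgfr2, the epithelial receptor for FGF10, held more counts per kb of exon than Fgfr1, with mean levels of 8.09 and 0.159 CPM per kb without FGF. Fgfr2 read 107, 27.5 and 117 CPM without FGF and 96.8, 90.6 and 94.5 CPM with it, so that Etv4_KO replicate 2 lay far below the other 5 libraries. The log2 change was 0.16 ± 0.37 with that library and -0.25 ± 0.14 without it, and neither was called (adjusted p = 0.814 and 0.33). Fgfr1 read 0.74 to 1.64 CPM in the 6 libraries and was not called. Sdc1 (syndecan-1), a heparan sulphate proteoglycan that presents FGFs to their receptors, rose from 554, 655 and 546 CPM to 761, 734 and 783 CPM (log2 0.38 ± 0.07, adjusted p = 0.0183). Flrt3, a membrane protein that binds FGF receptors, rose from 142, 105 and 149 CPM to 189, 178 and 187 CPM (log2 0.49 ± 0.10, adjusted p = 0.0282). Both calls were lost without any one of the 3 Etv4_KO_FGF libraries, that of Sdc1 also without Etv4_KO replicate 1, and that of Flrt3 also without control replicate 1 or 3 or control_FGF replicate 2 or 3 (adjusted p up to 0.0976 for Sdc1 and 0.114 for Flrt3). Both were called without Etv4_KO replicate 2. Fgfbp1, a secreted carrier of FGF2, was called only in that fit (log2 0.31, adjusted p = 0.00227). Of 18 tested receptors, co-receptors and ligands 2 were higher and 0 lower with all libraries, against 1.47% and 0.944% of all genes.

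ERK feedback inhibitors did not move as one group. Of 15 tested, 1 was higher and 2 lower with all libraries (median log2 0.07), and 3 were higher and 2 lower without Etv4_KO replicate 2 (median -0.04, all genes -0.0028). Of all genes tested 2.42% and 7.87% were called in these fits. Spred3, a SPRED protein that restrains RAS, rose from 58.8, 64.4 and 58.3 CPM to 83.4, 88.3 and 92.9 CPM (log2 0.54 ± 0.08, adjusted p = 0.00305). Spry1 (Sprouty 1) fell from 38.1, 33.9 and 36.4 CPM to 22.4, 24 and 23.5 CPM (log2 -0.63 ± 0.08, adjusted p = 0.0012). Dusp8, a phosphatase that acts mainly on the stress kinases JNK and p38, fell from 40.3, 44.1 and 39.2 CPM to 21.7, 23 and 27.9 CPM (log2 -0.77 ± 0.10, adjusted p = 0.00124). In all 3 genes the groups were clear of each other, with Etv4_KO replicate 2 beside its own group. Dusp7 and Dusp9, phosphatases of ERK, were called only without that library (log2 0.33 and 0.30).

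The best known FGF targets of the feedback list were not called. Dusp6, the ERK phosphatase often read as a gauge of FGF signalling, stood at 288, 199 and 281 CPM without FGF and 270, 279 and 254 CPM with it. The groups overlapped, with Etv4_KO replicate 2 lowest. The log2 change was 0.06 (95% interval -0.18 to 0.31), and without that library -0.09 (-0.20 to 0.02). Spry2 read 248, 200 and 238 CPM and then 249, 257 and 240 CPM, and Spry4 33.1, 26.6 and 28.9 CPM and then 30.7, 31 and 31.4 CPM. Without Etv4_KO replicate 2 their intervals were -0.07 to 0.14 and -0.16 to 0.16. Dusp4, Spred1 and Errfi1, an inhibitor of EGFR, had log2 changes of 0.02, 0.01 and 0.01 with all libraries and -0.06, -0.21 and -0.04 without Etv4_KO replicate 2, and Dusp5 -0.13 in both fits.

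Of 10 MAPK output genes 0 were called with all libraries (edgeR; 0 at an unadjusted p under 0.05, 0 by DESeq2 and 1 by limma-voom), and 1, Phlda1, without Etv4_KO replicate 2 (log2 0.19, adjusted p = 0.0288). Of all genes 2.42% and 7.87% were called by edgeR in these fits. Ccnd1 (cyclin D1), a proliferation target of ERK, was abundant and level, at 1988, 2038 and 2053 CPM and then 2087, 2090 and 2093 CPM (log2 0.04, 95% interval -0.07 to 0.16). The remaining PEA3 genes were not called either. Etv5 read 35.8, 30.6 and 32.4 CPM without FGF and 34.6, 31.8 and 32.7 CPM with it (95% interval of the log2 change -0.16 to 0.17). Etv1 read 115, 76.1 and 116 CPM and then 109, 98.4 and 105 CPM. Its log2 change was 0.03 with all libraries and -0.14 ± 0.06 without the low library, Etv4_KO replicate 2 (adjusted p = 0.914 and 0.19).

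**Figure D3:**
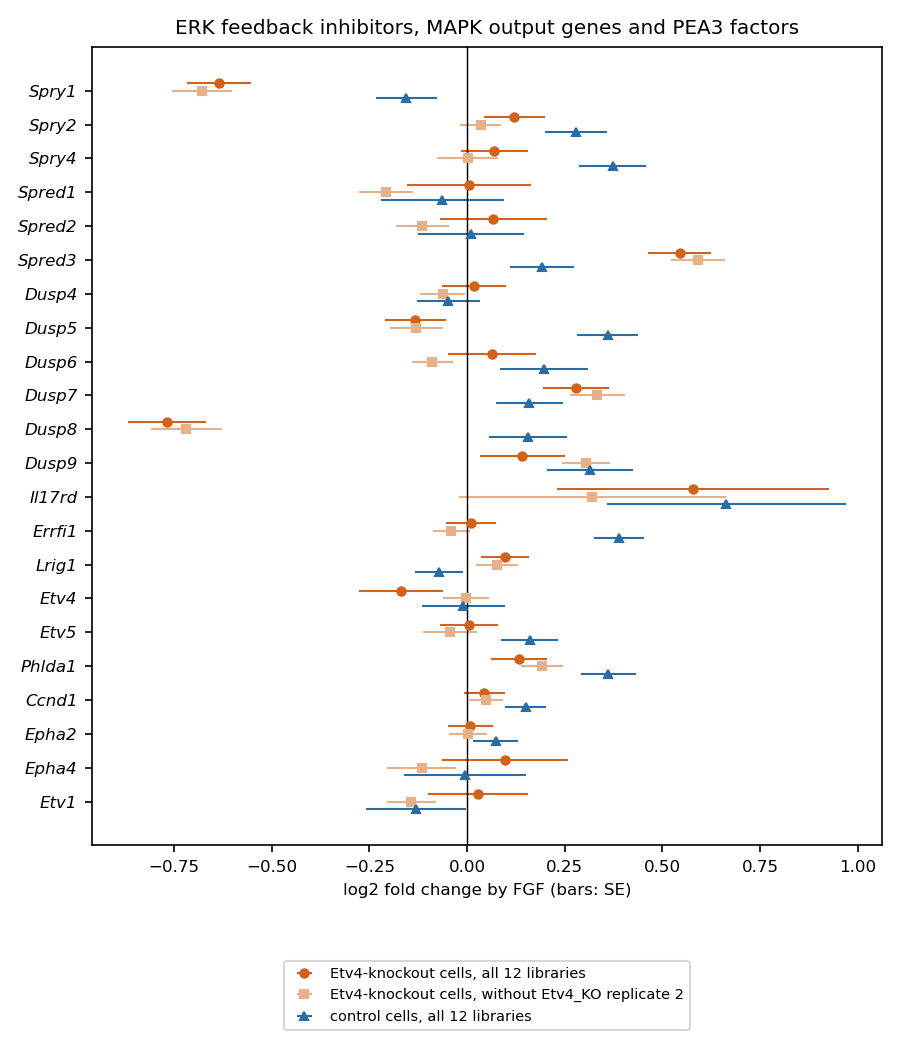
Log2 fold change by FGF (bars are SE) of the tested ERK feedback inhibitors, MAPK output genes and PEA3 factors in knockout cells with all libraries (circles), in knockout cells without Etv4_KO replicate 2 (squares) and in control cells (triangles). Spred3 lies to the right of 0 and Spry1 and Dusp8 to the left in both knockout fits, while Dusp6, Etv5 and Ccnd1 lie near 0.

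Immediate early genes, which are switched on within minutes of a growth signal, were measured here after days of treatment. Of 26 tested, 2 were higher and 5 lower (median log2 -0.20), and 5 and 11 without Etv4_KO replicate 2. Over all genes 1.47% were higher and 0.944% lower, and without that library 4.84% and 3.03%. The orphan nuclear receptors fell. Nr4a1 read 140, 130 and 125 CPM without FGF and 76.7, 89.7 and 84.4 CPM with it (log2 -0.65 ± 0.09, adjusted p = 0.00234), and Nr4a2 23, 15.2 and 20.6 CPM and then 9.54, 9.89 and 11.3 CPM (log2 -0.94 ± 0.14, adjusted p = 0.00323). Atf3, a stress-induced bZIP factor, fell by 0.79 ± 0.11 on the log2 scale and Klf4, a zinc finger factor of differentiating epithelium, by 0.52 ± 0.07. Mafk fell by 0.36 ± 0.08 in the fit of all libraries, but that call was lost when single libraries were left out (adjusted p up to 0.144). Ier5 rose by 0.40 ± 0.07. Jun, the AP-1 subunit, rose from 918, 992 and 898 CPM to 1146, 1273 and 1178 CPM (log2 0.36 ± 0.07, adjusted p = 0.013), a call lost without Etv4_KO_FGF replicate 2 or 3 (up to 0.0866). Fos and Fosb, its partners, were called lower only without Etv4_KO replicate 2 (log2 -0.43 and -0.48). Egr1, another ERK-driven early gene, was at 0.10 ± 0.09 with all libraries and -0.02 ± 0.05 without that one. Rgs2, a brake on G protein signalling, fell from 6.92, 7.73 and 5.47 CPM to 2.85, 3.01 and 2.32 CPM (log2 -1.29 ± 0.18, adjusted p = 0.00195).

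Several secreted or membrane-bound ligands rose. Stc1 (stanniocalcin-1), a secreted glycoprotein hormone, went from 32.8, 28.1 and 29 CPM to 69.9, 76.9 and 71.5 CPM (log2 1.28 ± 0.08, adjusted p = 3.82e-06). Sema7a, a membrane-anchored semaphorin that binds integrin beta 1, went from 13, 17.6 and 13 CPM to 40.4, 37.5 and 37.6 CPM (log2 1.41 ± 0.11, adjusted p = 1.53e-05). Btc (betacellulin), an EGFR ligand, went from 14.4, 9.65 and 14.3 CPM to 26.5, 26.1 and 28.8 CPM (log2 1.08 ± 0.13, adjusted p = 0.000991). In each of these genes every FGF library exceeded every library without FGF, which the rule for naming them required. Inhba, the activin A subunit, rose by 0.66 ± 0.07 on the log2 scale, and Csf2 (GM-CSF) rose from 2.73, 3.3 and 5.05 CPM to 6.87, 7.67 and 7.4 CPM, a call lost without Etv4_KO replicate 1 or any Etv4_KO_FGF library (adjusted p = 0.0261, up to 0.104). Of the guidance genes, 2 of 25 tested were higher (Sema7a and Sema4b, log2 0.49) and 1 lower (Ephb6, log2 -0.65, a call lost without Etv4_KO_FGF replicate 1 or 2, at up to 0.0609). Over all genes 1.47% were higher and 0.944% lower.

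The Notch list had 2 of 11 tested genes higher and 1 lower, against 1.47% and 0.944% of all genes. Dll4, a Notch ligand best known from vessels, rose from 50.5, 53.2 and 51.6 CPM to 90.6, 92.4 and 87.6 CPM (log2 0.80 ± 0.07, adjusted p = 4.1e-05). Dll1 rose by 0.56 ± 0.10, and Hes1, a target repressor of Notch, fell by 0.41 ± 0.07 (adjusted p = 0.00761; lost without Etv4_KO_FGF replicate 1, at 0.0587). Of 17 TGF-beta and BMP targets 2 were higher and 3 lower, against the same shares of all genes. The Id genes, bHLH inhibitors induced by BMP signalling, fell together. Id3 read 112, 141 and 116 CPM without FGF and 72.9, 74.8 and 69.5 CPM with it (log2 -0.76 ± 0.09, adjusted p = 0.00088). Id1 read 71.6, 78.1 and 70.2 CPM and then 50.6, 49.2 and 48.8 CPM, and Id2 72.8, 69.1 and 69.5 CPM and then 55.5, 52.2 and 53.6 CPM (log2 -0.57 ± 0.09 and -0.39 ± 0.06). Pmepa1, a target and inhibitor of TGF-beta signalling, rose by 0.49 ± 0.08, beside Inhba. Ankrd1, a YAP target, fell by 0.54 ± 0.08, the only call among 12 YAP targets with all libraries, while without Etv4_KO replicate 2 there were 1 higher and 2 lower. Of all genes 2.42% and 7.87% were called in these fits.

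Slc7a11, the cystine transporter that feeds glutathione synthesis and a target of ATF4 and NRF2, was 3.10-fold higher with FGF. It read 11, 5.1 and 12.2 CPM without FGF and 31.6, 27.7 and 29.2 CPM with it. Etv4_KO replicate 2 was the lowest library, and the log2 change was 1.63 ± 0.22 with it and 1.35 ± 0.12 without it (adjusted p = 0.00176 and 7.13e-08). Trib3 (log2 0.77 ± 0.15) and Mthfd2 (0.40 ± 0.08), other ATF4 targets, rose too, and with Slc7a11 made 3 of 26 tested stress-response genes higher and 0 lower. Over all genes 1.47% were higher and 0.944% lower. The other NRF2 list genes called were lower, Osgin1 by 0.58 ± 0.10 and Gsta4, a glutathione transferase, by 0.60 ± 0.14. Of 24 cholesterol synthesis genes 2 were higher, Cyp51 (log2 0.29) and Sc5d (0.40), and 0 lower, and without Etv4_KO replicate 2 there were 7 higher and 0 lower. Without that library 4.84% of all genes were higher and 3.03% lower. Odc1, the rate-limiting enzyme of polyamine synthesis, rose by 0.30 ± 0.06. The calls of Trib3, Mthfd2, Osgin1, Gsta4, Cyp51, Sc5d and Odc1 were each lost without 1 or more of the Etv4_KO_FGF libraries (adjusted p up to 0.146). Those of Trib3 and Mthfd2 were also lost without Etv4_KO replicate 1, and those of Gsta4 and Cyp51 without any 1 control library and some control_FGF libraries.

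Other genes with large changes were mostly of low abundance. Cdh17, a cadherin of intestinal epithelium, rose from 2.52, 3 and 3.22 CPM to 9.17, 7.72 and 6.86 CPM (log2 1.44 ± 0.15), and Fer1l6, a ferlin, from 3.13, 3.18 and 3.04 CPM to 6.73, 9.41 and 8.29 CPM (1.38 ± 0.18). Sema6a, another semaphorin, had the largest rise among the genes named by the rule but rested on 9, 1 and 7 counts without FGF and 28, 24 and 25 with it (log2 2.10 ± 0.38; 1.69 without Etv4_KO replicate 2). Cox17, Grid1, Nipal4 and Tmem51 rose by 1.20 to 1.31 on the log2 scale. On the falling side, Igfbp7, a secreted protein that binds insulin-like growth factors, read 7.42, 11.5 and 5.37 CPM and then 3.13, 2.43 and 3.06 CPM. The high value was Etv4_KO replicate 2, and the log2 change was -1.47 ± 0.23 with it and -1.14 ± 0.16 without it. Lrrc75b fell from 5.86, 6.18 and 5.65 CPM to 2.29, 2.49 and 2.61 CPM. S100a16, Cbr2, Hfe, Aqp1 (a water channel), Cp (ceruloplasmin), Rasgef1b and Dbp had log2 changes between -1.17 and -0.97. Ly9 fell from 12, 9 and 12 counts to 4, 4 and 2 counts. Single libraries decided the calls of Cox17, Tmem51, S100a16, Cbr2, Hfe, Aqp1, Dbp and Ly9, whose adjusted p reached 0.158 when 1 library was left out.

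Members of the S phase and the G2 and M phase lists were called lower in both fits, with 0 higher. In the S phase list 0 of 25 tested genes were higher and 2 lower (Tyms, log2 -0.42, and Mcm5, -0.37), with a list median of -0.16, and in the G2 and M phase list 0 of 25 were higher and 2 lower (Bub1b and Nusap1, both -0.29), with a median of -0.15. Over all genes 1.47% were higher and 0.944% lower, which also holds for the lists named next. All 4 of these calls were lost when single libraries were left out (adjusted p up to 0.166). Without Etv4_KO replicate 2 the S phase list had 6 lower and the G2 and M list 4, against 3.03% of all genes lower. The hypoxia list had 1 higher (Ndrg1, log2 0.35, lost at up to 0.143) and 1 lower (Bhlhe40, -0.64), the interferon list 1 higher (Ifih1, 0.55) and 1 lower (Gbp2, -0.66), and MHC class I presentation 1 lower of 18, Psmb10, an immunoproteasome subunit (-0.81). The Ifih1 and Gbp2 calls were also lost without single libraries (up to 0.176). Of 33 epithelial junction and identity genes 0 were called with all libraries (edgeR; 10 at an unadjusted p under 0.05, 3 by DESeq2 and 9 by limma-voom), against 4 higher and 2 lower without Etv4_KO replicate 2. Epcam was then higher (log2 0.23) and Krt8, a luminal keratin, lower (log2 -0.21). Krt8 read 1525, 2305 and 1514 CPM without FGF and 1339, 1308 and 1286 CPM with it, and leaving out the high library changed its log2 value from -0.44 to -0.21. Glycolysis, oxidative phosphorylation, mitochondrially encoded genes, ribosomal proteins, heat shock chaperones, Wnt targets and fatty acid synthesis, 170 tested genes in all, had 0 calls with all libraries (edgeR; 40 at an unadjusted p under 0.05, 6 by DESeq2 and 11 by limma-voom), and 7 calls without Etv4_KO replicate 2. Of all genes 2.42% and 7.87% were called by edgeR in these fits.

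**Figure D4:**
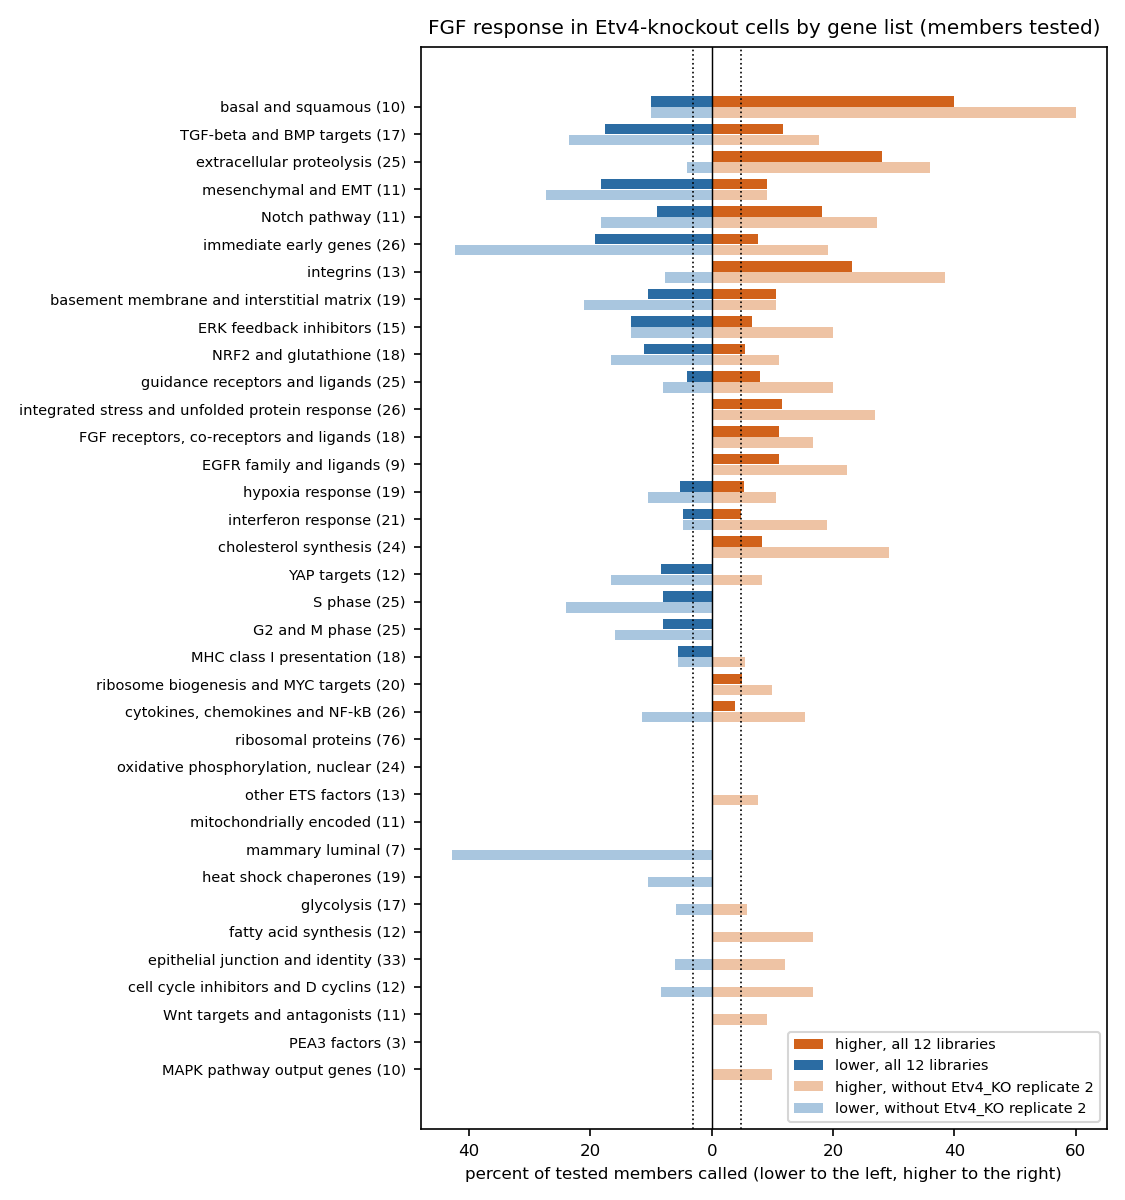
Share of tested members of each gene list called higher (right, orange) or lower (left, blue) with FGF in knockout cells, dark bars with all 12 libraries and pale bars without Etv4_KO replicate 2; dotted lines mark the shares over all genes in the second fit, 4.84% higher and 3.03% lower. Proteolysis, basal and integrin lists lie mostly to the right and the immediate early list mostly to the left.

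The same factors given to control cells called 59 genes with all 12 libraries (0.488%), 31 higher (0.257%) and 28 lower (0.232%), and 340 without Etv4_KO replicate 2 (2.81%). Of the 292 genes called in knockout cells, 253 had the same sign in control cells, or 86.6% (all genes tested, 46.8%). Calls in both genotypes numbered 40, all of the same sign, which is 13.7% of the knockout calls and 67.8% of the control calls. Leaving out Etv4_KO replicate 2 gave 192 such calls, 188 of the same sign, or 20.2% and 56.5% of the calls. In that fit 79.9% of the knockout calls had the same sign in control cells (all genes, 56.0%). The log2 changes of Plau and Mmp3 lay close together in both genotypes, although their levels differed. Without FGF, Plau read 393, 380 and 383 CPM in control cells and 781, 779 and 764 CPM in knockout cells. Mmp3 read 203, 200 and 202 CPM in control cells and 492, 447 and 487 CPM in knockout cells. Plau had a log2 change of 0.68 ± 0.05 in control cells and Mmp3 of 0.49 ± 0.06, and the differences between genotypes were 0.09 (adjusted p = 0.582) and -0.02 (adjusted p = 0.942), which were not called.

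The test of the difference itself, the log2 change by FGF in knockout cells minus that in control cells, called 2 genes with all libraries (0.0166%), both higher, and 0 lower (edgeR; 672 lower at an unadjusted p under 0.05, 24 by DESeq2 and 74 by limma-voom). It called 120 without Etv4_KO replicate 2 (0.993%), 88 higher (0.729%) and 32 lower (0.265%). The 2 were Mmp9 and Mmp13. In control cells Mmp9 read 123, 127 and 119 CPM without FGF and 175, 183 and 186 CPM with it (log2 0.56 ± 0.08), so the knockout cells were lower than control cells without FGF and higher with it. The difference was 0.95 ± 0.11 (adjusted p = 0.0123), and 1.03 ± 0.08 without Etv4_KO replicate 2 (adjusted p = 7.26e-08). Mmp13 read 49.4, 54.1 and 54.6 CPM in control cells without FGF and 58.6, 51 and 53.7 CPM with it, where the groups overlapped. Its difference was 1.08 ± 0.14 (adjusted p = 0.0243), and 0.97 ± 0.10 in the smaller fit (adjusted p = 4.2e-06). Leaving out single other libraries ended both calls, with adjusted p up to 0.0902 for Mmp9 (control replicate 2) and 0.154 for Mmp13 (control_FGF replicate 2), while the differences stayed between 0.90 and 1.15 over all 12 such fits.

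Most of the differences rested on the fit without Etv4_KO replicate 2. In that fit Slc7a11 differed by 1.65 ± 0.16 (adjusted p = 2.45e-06; 1.93 and 0.0635 with all libraries). It read 22.3, 17.9 and 20.6 CPM in control cells without FGF and 18.9, 14.6 and 15.9 CPM with it. The control groups overlapped, and no control library with FGF reached the lowest knockout library with FGF. Sema7a, Stc1 and Mmp10, which rose in both genotypes, had a larger log2 change in knockout cells by 0.51, 0.52 and 0.52. Itga5 (0.55), Itga2 (0.42), Itgb1 (0.28) and Col7a1 (0.54) were also higher in the difference, and Col6a1 (-0.69), Mgp (-2.04) and Igfbp7 (-0.93) lower.

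Early response genes differed between the genotypes in the same fit. Fos read 549, 540 and 559 CPM in control cells without FGF and 244, 251 and 262 CPM with it, a fall of 1.12 ± 0.10 on the log2 scale (all 12 libraries), and the difference for the knockout cells was 0.69 ± 0.07 (adjusted p = 4.04e-06). Nr4a1 went from 165, 168 and 150 CPM to 57, 53.7 and 66.8 CPM and Nr4a2 from 41.7, 43.9 and 37 CPM to 11.3, 11.1 and 12.2 CPM in control cells, with differences of 0.78 and 0.74. Thus these genes fell in both genotypes, and by a smaller amount in the knockout cells. Fosb (0.84), Klf4 (0.57), Rgs2 (1.05) and Jun (0.42) also had positive differences. Negative differences were found for Egr1 (-0.43), Errfi1 (-0.43), Dusp5 (-0.49), Spry1 (-0.52) and Dusp8 (-0.87), and a positive one for Spred3 (0.40). Errfi1, for example, rose in control cells (log2 0.39 ± 0.06 with all 12 libraries) and stood at -0.04 ± 0.05 in knockout cells without Etv4_KO replicate 2. For Dusp6, Spry2 and Spry4 the difference was not called (-0.29, -0.24 and -0.37, adjusted p = 0.0534, 0.0947 and 0.0928), although in control cells all 3 were higher with FGF in that fit (adjusted p = 0.0202, 0.0007 and 0.00249). Of 10 MAPK output genes 5 were called higher in control cells in that fit, against 1.6% of all genes. In the difference 0 of 10 were called, against 0.993% of all genes (edgeR; 5 at an unadjusted p under 0.05 in that fit, 0 by DESeq2 and 2 by limma-voom with all libraries).

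**Figure D5:**
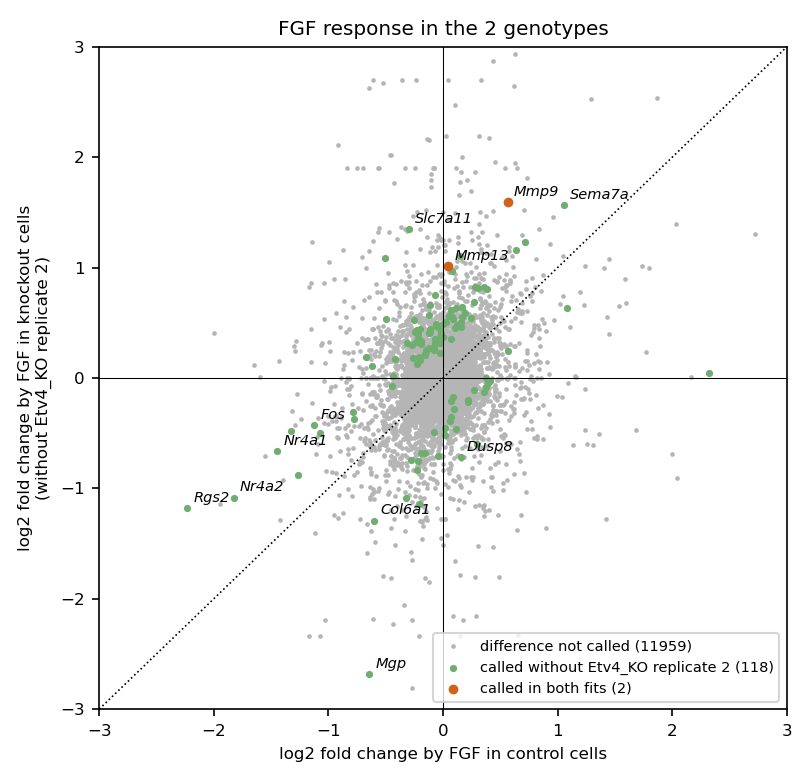
Log2 fold change by FGF in control cells (horizontal axis, all 12 libraries) and in knockout cells (vertical axis, without Etv4_KO replicate 2), 1 point per tested gene; 31 genes lie outside the axes. Mmp9 and Mmp13, whose difference was called in both fits, lie above the dotted line of equal change, as does Slc7a11, while Rgs2, Nr4a1, Nr4a2 and Fos lie above it on the negative side.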

How the data were processed

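Bulk polyA RNA of 12 libraries was measured. The authors deposited 1 table of whole-number read counts per gene symbol (31017 symbols, 13134 with no count in any library). Per the submitters' processing notes R 4.1.1, FastQC 0.11.9, featureCounts and STAR 2.7.9a were run, and mm10 and hg38 are named as builds, without their roles. The libraries were made with a stranded kit, per the labels' protocols, and whether counting used strand is not given there, so overlapping genes may share reads. Groups came from the labels' treatment text.

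The deposited counts were fitted with edgeR 4.0.16 (R 4.3.3): filterByExpr by group (12079 genes), TMM scaling, 1 mean per group over all 12 libraries, the quasi-likelihood F-test and Benjamini-Hochberg adjustment over all genes. A gene is called at an adjusted p under 0.05. SEs are the log2 change divided by the root of F, and 95% intervals use the moderated degrees of freedom. CPM are divided by the effective library size. Coordinates and exon lengths are from GENCODE vM21, which matched 30477 symbols directly. The fitting code was tested on simulated data.

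The named genes are Etv1, Etv4 and Etv5, the 15 largest changes per direction called with and without Etv4_KO replicate 2 (mean log2 CPM of 1 or more, groups not overlapping), up to 5 per list with the smallest adjusted p, and the members of the ERK, MAPK and PEA3 lists. Some list members are not reported here by name. Genes and lists were chosen with earlier results of these data known. Those named outside the rule (among them Mmp1b, Adam19, Adamts1, Mafk, Fos, Fosb, Egr1, Plaur and Fgfr2) were chosen after their values were seen. So were the genes described for the difference test without Etv4_KO replicate 2. Alternatives were DESeq2 1.42.0, limma-voom 3.58.1, other scalings and filters, length and GC correction, a replicate block and leaving out libraries. Upstream windows are from RefSeq, which held one for 142 of 205 genes named by the rule.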

Additional observations from a re-analysis of the deposited data

Results flagged for a closer look

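The response to FGF differed between knockout and control cells by the interaction test in the following genes (log2 change in knockout cells minus that in control cells). With all 12 libraries the differences were 0.95 for Mmp9 and 1.08 for Mmp13.

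Without Etv4_KO replicate 2, and not with it, the test also called proteases, matrix genes and their receptors: Mmp10 at 0.52, Itga2 at 0.42, Itga5 at 0.55, Itgb1 at 0.28, Col7a1 at 0.54, Col6a1 at -0.69 and Mgp at -2.04. In the same fit Slc7a11 differed by 1.65, Sema7a by 0.51, Stc1 by 0.52, Igfbp7 by -0.93, Ankrd1 by -0.54, Bhlhe40 by -0.54 and Osgin1 by -0.47. Early response genes differed by 0.69 (Fos), 0.84 (Fosb), 0.42 (Jun), -0.43 (Egr1), 0.78 (Nr4a1), 0.74 (Nr4a2), 0.57 (Klf4) and 1.05 (Rgs2). Feedback genes differed by -0.52 (Spry1), -0.87 (Dusp8), 0.40 (Spred3), -0.49 (Dusp5) and -0.43 (Errfi1).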

How the results depend on the processing

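For the FGF response in knockout cells (178 genes higher, 114 lower), DESeq2 called 410 and 320, limma-voom with quality weights 783 and 588, length and GC correction with no replicate block 460 and 304 and with replicate block 459 and 287, the 6 knockout libraries alone 17 and 4, that fit without Etv4_KO replicate 2 862 and 583, and leaving out Etv4_KO replicate 2 together with control_FGF replicate 2 837 and 599. The last 2 were chosen after seeing the data. Leaving out 1 library gave 75 to 585 higher and 45 to 366 lower. The cause of these shifts was not tested. DESeq2, limma-voom and the length and GC corrections used all 12 libraries, and only the other fits of this paragraph used fewer.

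For the difference between genotypes (2 higher, 0 lower), no filter on low counts gave 7 and 1, DESeq2 42 and 24, limma-voom 145 and 74, length and GC correction 15 and 4 (10 and 2 with replicate block), leaving out both libraries 148 and 67, and leaving out 1 library 0 to 88 higher and 0 to 32 lower. Replicate numbers did not pair the knockout libraries (same-number correlations 0.0777, 0.0306 and -0.0111). With the replicate block alone 174 were higher and 95 lower, and 3 and 0 in the difference.

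All 83 called genes named in the text kept their direction in each of the 24 alternatives. In 52 the call held whichever library was left out, and in 31 it was lost without 1 or more libraries, in each case an Etv4_KO_FGF library among them. Uncalled genes reversed sign in places. With limma-voom the values were Etv1 -0.14, Etv5 -0.042, Spred1 -0.20, Dusp4 -0.060, Dusp6 -0.082, Errfi1 -0.034, Fgfr2 -0.21 and Egr1 -0.014. Without both libraries they were -0.14, -0.042, -0.21, -0.062, -0.088, -0.040, -0.25 and -0.024 in that order, and in the 6 libraries less Etv4_KO replicate 2 -0.14, -0.041, -0.20, -0.060, -0.086, -0.038, -0.25 and -0.021. Upper-quartile scaling gave Etv5 -0.018, Spred1 -0.016, Dusp4 -0.0049 and Errfi1 -0.011, and length and GC correction Etv1 -0.17 and Spred1 -0.11 with or without replicate block. Over fits that left out 1 library, values ran from -0.14 to 0.13 (Etv1), -0.044 to 0.069 (Etv5), -0.21 to 0.13 (Spred1), -0.063 to 0.066 (Dusp4), -0.088 to 0.16 (Dusp6), -0.040 to 0.056 (Errfi1), -0.25 to 0.48 (Fgfr2) and -0.024 to 0.17 (Egr1).

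Intervals and tests cover these libraries only, and genes with few counts, such as Sema6a, Mgp, Col6a2 and Ly9, are the least precise.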
